A study of Mus musculus with 12 samples.

Results

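The regions described here are places that Ikaros occupied after lipopolysaccharide (LPS), was not listed at before it, still occupied later, and at which RelA was listed at no time in the same wild-type cells. They were chosen from the Ikaros hotspots of 3 h of LPS, a hotspot being a stretch of DNA enriched for sequence tags in 1 library. Of 7161 such hotspots as deposited, 52 overlapped a hotspot of untreated wild-type input DNA by 1 bp or more, which left 7109. Of these, 750 overlapped an Ikaros hotspot of 0 h, and the other 6359 are called gained. A RelA hotspot of 0, 3 or 8 h overlapped 2409 of the gained regions and none overlapped the other 3950. Of those 3950, 2996 overlapped an Ikaros hotspot of 8 h. These 2996 RelA-free kept regions made up 42.1% (41.0 to 43.3) of the 7109 Ikaros 3 h hotspots and were the largest of the 6 classes into which the rule divides them. RelA-free means here only that no listed wild-type RelA hotspot overlapped the 3 h Ikaros hotspot. All lists together held 50940 hotspots. Intervals here and below are exact Clopper-Pearson 95% intervals, and they cover counting error over regions alone.

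Ikaros is a zinc finger DNA-binding protein encoded by Ikzf1, best known for its part in lymphocyte development, where it works with chromatin-remodelling and histone deacetylase complexes and can act on genes in either direction. RelA is a DNA-binding subunit of NF-kB that inhibitor proteins hold in the cytoplasm of resting cells and that enters the nucleus when macrophages sense LPS, a glycolipid of Gram-negative bacteria.

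All cells were primary macrophages grown from bone marrow on the C57BL/6J strain background, and their chromatin was precipitated with a goat polyclonal antibody to Ikaros (M-20) or a rabbit polyclonal antibody to RelA (ab7970). The groups used are Ikaros in wild-type cells given LPS for 0, 3 and 8 h, RelA in wild-type cells at the same 3 times, RelA at the same 3 times in cells with the genotype label littermate control, and untreated wild-type input genomic DNA. With 1 library per group, replicate error cannot be given and no p-value between groups was computed. Of 12 samples in the labels, 10 had a file used here, and the inputs of the littermate control and Ikzf KO animals were not analysed here. Sequencing depth is unknown for every library. Positions are on the mm9 build, as deposited.

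File names go against the time labels for the wild-type Ikaros and RelA samples of 0 h, which carry 3 h, and the names of the samples of 8 h carry 3 h beside 8 h. Names of the littermate RelA files of 3 and 8 h carry a time in minutes as well. The labels were followed, so each statement about gain and retention rests on them, and no result could be computed without these lists. The lists also differ in length. Ikaros had 904, 7161 and 13843 hotspots at 0, 3 and 8 h, and wild-type RelA had 83, 5017 and 1890. Of the 83 RelA hotspots of 0 h, 36 overlapped input, so that list could exclude few regions. The lowest listed z score, the authors' score of a hotspot, was 9.90, 9.82 and 9.75 for Ikaros at 0, 3 and 8 h. For wild-type RelA it was less even, at 9.93, 8.88 and 10.9. A region absent from a list may therefore hold the factor below the threshold of that list.

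**Figure D1:**
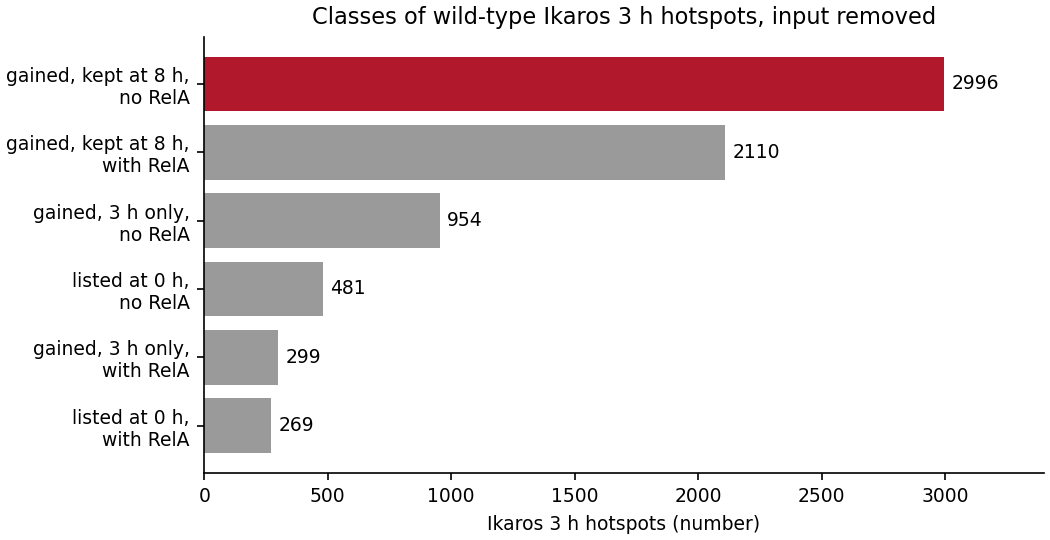
Number of wild-type Ikaros 3 h hotspots in each of the 6 classes, after removal of input. The RelA-free kept regions (red, top bar) number 2996, followed by 2110 gained regions kept with RelA and 954 RelA-free regions not listed at 8 h.

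The RelA-free kept regions were narrow and of moderate strength. At 3 h their width ran from 251 to 6093 bp with a median of 496 bp (quartiles 371 and 604), and 134 of them had the smallest width that any list holds, 251 bp. Highest tag density, given in the files without a scale, ran from 6.82 to 79.8 with a median of 20.9 (quartiles 17.3 and 25.7). Their z scores ran from 9.82 to 55.3 with a median of 12.9. Gained regions kept with RelA had a median z score of 15.4 and a median width of 605 bp. RelA-free regions of 3 h alone had a median z score of 11.2 and a median width of 384 bp, and RelA-free regions already listed at 0 h had 20.8 and 648 bp. In both measures the RelA-free kept regions thus lay between the transient and the resting classes. These values come from the library that chose the regions and are a description.

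Strength and width went together among the 2996 regions. Across regions, which share a library and are not replicates, the rank correlation of z score with width at 3 h was 0.89. In the weakest quintile of all Ikaros 3 h hotspots by z score, the 666 RelA-free kept regions had a median width of 286 bp, and in the strongest the 340 had 702 bp. They formed 46.8% of all hotspots in the weakest quintile and 23.9% in the strongest.

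Absence at 0 h can be set against the strength of what was listed at 0 h. Of the 2996 regions, 2100 (70.1%) had at 3 h a highest density of at least 18.0, the lower quartile of the 853 Ikaros hotspots of 0 h outside input, and 1350 (45.1%) reached its median of 21.6. By z score 1454 (48.5%) reached the 0 h median of 13.0. These shares were not computed over all 7109 Ikaros 3 h hotspots. The median z score at 3 h was 13.6 over all of these, above the 0 h median. In the RelA-free kept regions it was 12.9, below the 0 h median. Median highest density at 3 h also lay above the 0 h median over all hotspots and below it, at 20.9, in the RelA-free kept regions. The scale of density between libraries is not stated, so these are values side by side. An Ikaros hotspot of 0 h lay within 1 kb of 18 regions, 0.601% (0.356 to 0.948), and within 10 kb of 165, 5.51% (4.72 to 6.39). The other gained classes were close to this, with 6.73% (5.70 to 7.88) of regions kept with RelA and 4.30% (3.10 to 5.79) of RelA-free regions of 3 h alone within 10 kb. The median gap was 497 kb in the RelA-free kept regions, 522 kb in those kept with RelA and 547 kb in those of 3 h alone.

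The strongest of the regions by z score at 3 h lay on chromosome 18 at 61799975 to 61800837, with a z score of 54.7 at 8 h and 55.3 at 3 h and a highest density of 82.1 at 8 h and 79.8 at 3 h. Chromosome 14 at 64518028 to 64518825 came next, with a highest density of 73.9 at 8 h and 58.7 at 3 h. Both were thus as dense at 8 h as at 3 h or denser. The next, on chromosome 8 at 26385340 to 26386171, had 20.4 at 8 h against 67.0 at 3 h. The region on chromosome 9 at 21319554 to 21320346 had 61.6 at 8 h and 78.8 at 3 h, and it was the 1 region among the strongest 10 that also overlapped littermate RelA, at 3 h. On chromosome 7 at 30879574 to 30880306 the highest density was 95.9 at 8 h and 60.1 at 3 h, with the highest z score of all the regions at 8 h, 70.7. The other 5 of the strongest 10 were all less dense at 8 h than at 3 h. They lay on chromosome 17 at 47432340 to 47433227, chromosome 6 at 82966994 to 82967776, chromosome 11 at 3813966 to 3814806, chromosome 1 at 37777787 to 37778589 and chromosome 1 at 151703706 to 151704561. Of the 10, 3 were denser and 7 less dense at 8 h. They were ranked on the 3 h library, which is the denominator of that change.

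The next 5 regions were ranked on the 8 h library, the numerator of the change, after the strongest 10 at 3 h were set aside, so their high ratios follow from how they were picked. Chromosome 7 at 125622239 to 125623120 had a highest density of 66.2 at 8 h and 26.4 at 3 h, chromosome 13 at 16021579 to 16022296 had 80.2 at 8 h and 37.3 at 3 h, and chromosome 17 at 32472723 to 32473464 had 72.3 at 8 h and 29.0 at 3 h. All 3 kept their place and were over 2 times as dense at 8 h, by 2.51, 2.15 and 2.49 times. The remaining pair became part of broad regions. A hotspot of 285 bp on chromosome 2 at 129193526 to 129193811 lay at 8 h inside one of 5098 bp, with a highest density of 118 at 8 h and 21.1 at 3 h, and a hotspot of 295 bp on chromosome 10 at 80394161 to 80394456 met one of 2664 bp, with 65.2 at 8 h and 14.7 at 3 h. Both broad hotspots also met a wild-type RelA hotspot, although the narrow 3 h hotspot did not.

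At 8 h most of the regions sat at the same place, wider and denser than at 3 h. Each of 2900 regions (96.8%) met a single Ikaros hotspot of 8 h that met no other Ikaros hotspot of 3 h. The centres of region and partner lay a median of 44.5 bp apart (quartiles 20.0 and 83.0), and 80.8% lay within 100 bp. The 8 h hotspot enclosed the 3 h hotspot whole in 1785 regions (59.6%) and was the wider of the pair in 2394 (79.9%). Over all 5841 Ikaros 3 h hotspots with an 8 h partner the values were similar, with a median centre distance of 43.5 bp and a median width ratio, 8 h over 3 h, of 1.23 against 1.28 in the RelA-free kept regions. Median width was 640 bp at 8 h and 496 bp at 3 h, and median z score 17.6 at 8 h and 12.9 at 3 h. Highest density had a median of 26.8 at 8 h and 20.9 at 3 h.

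The ratio of highest density, 8 h over 3 h, had a median of 1.28 (1.26 to 1.30, binomial interval of the median) over the 2996 regions and was above 1 in 2297 of them, 76.7% (75.1 to 78.2). The share above 1 was not computed over all 5841 Ikaros 3 h hotspots with an 8 h partner. Their lower quartile of the ratio was 1.02 and their median 1.28, the same as in the RelA-free kept regions. At least 1.5 times the 3 h density was reached by 951 regions, 31.7% (30.1 to 33.4), where 32.2% of all 5841 Ikaros 3 h hotspots with an 8 h partner did so. A fall of at least 1.5 times was seen in 85 regions, 2.84% (2.27 to 3.50), where 3.46% of all did so. A ratio exists only for regions listed at 8 h, so falls below that list are not counted in these shares. The median ratio was 1.28 in gained regions kept with RelA and 1.26 in RelA-free resting regions. Their intervals, 1.26 to 1.31 and 1.21 to 1.31, overlapped that of the RelA-free kept regions. Resting regions with RelA had the highest median, 1.37 (1.30 to 1.42), and 38.7% (32.8 to 44.8) of them were at least 1.5 times as dense at 8 h. The size and direction of the ratio depend on how the lists are scaled, which is not stated. The 46 hotspots over input with an 8 h partner had a median ratio of 0.812. Scaled to these, the median of the RelA-free kept regions was 1.57. Scaled to all 5841 Ikaros 3 h hotspots with a partner it was 0.997. That set includes the regions themselves and had a median of 1.28, so a value near 1 follows from the scaling and gives no direction.

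**Figure D2:**
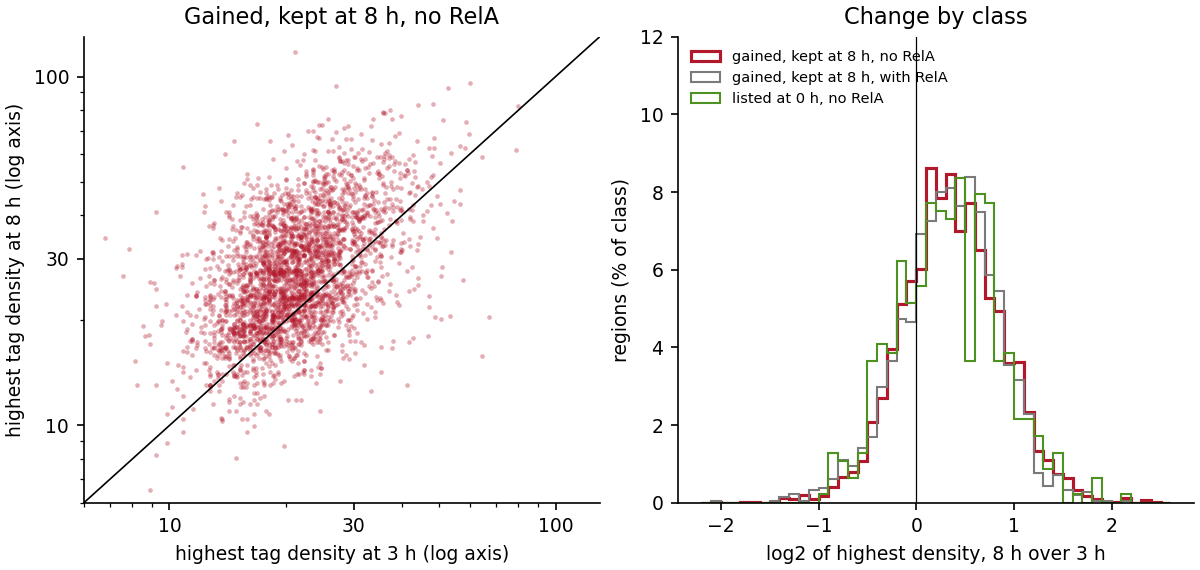
Left, highest tag density at 3 h (x) and at 8 h (y) of each of the 2996 RelA-free kept regions, on log axes with the line of equal density. Right, log2 of the ratio 8 h over 3 h as a percentage of each class: 76.7% of the regions lie above equality, and the distribution of the RelA-free kept regions overlies those of kept regions with RelA and RelA-free resting regions.

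The change was larger in weak than in strong regions. From the weakest to the strongest quintile by 3 h z score the median ratio ran 1.42, 1.31, 1.26, 1.20 and 1.09, and the share denser at 8 h ran from 87.8% to 58.5%. Median highest density at 8 h still rose with 3 h strength, from 23.3 to 38.3. The ratio and the ranking share the 3 h library, so this order is a description. A region also had to be listed at 8 h to enter. Of gained regions without RelA, 61.3% in the weakest quintile and 95.8% in the strongest were listed then. Regions that fell below the 8 h list, more of them weak, are therefore missing from these medians. By chromosome the median ratio lay between 1.18 on chromosome 17 and 1.36 on chromosome 8, above 1 on each of the 20 chromosomes that held such regions. Over all Ikaros 3 h hotspots with an 8 h partner it was 1.23 on chromosome 17 and 1.34 on chromosome 8. The lowest value over all of these was 1.22, on chromosome X, so a median above 1 was common to the whole list.

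Among regions with a single partner, 4 of the 5 largest gains were at hotspots of 251 to 263 bp at 3 h and 1 was at a wider one. Chromosome 12 at 3496304 to 3496555 had a highest density of 55.0 at 8 h and 10.8 at 3 h, and chromosome 5 at 125410028 to 125410279 had 34.5 at 8 h and 6.82 at 3 h, each of 251 bp at 3 h. Chromosome 8 at 86593957 to 86594220, chromosome 15 at 73426646 to 73427277 and chromosome 5 at 43473243 to 43473494 followed, at 4.31, 3.57 and 3.53 times. The region on chromosome 15 was 631 bp wide at 3 h. The largest losses were at regions that had been strong. The 3 h density is the denominator of this ratio, and a ratio exists only for regions listed at 8 h. Large falls were therefore open mainly to strong regions, and these gains and losses are a description. Chromosome 6 at 82966994 to 82967776 had 15.8 at 8 h and 64.6 at 3 h, with a hotspot of 282 bp at 8 h and 782 bp at 3 h around the same centre. Chromosome 5 at 104476393 to 104477242 had 13.0 at 8 h and 41.1 at 3 h, and chromosome 10 at 126365462 to 126366149 had 18.0 at 8 h and 46.8 at 3 h. A pair of neighbours on chromosome 8, starting 29.5 kb apart, both belonged to these 5. The one at 26385340 is described above, and that at 26414835 to 26415690 had 12.5 at 8 h and 33.2 at 3 h.

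Retention itself, which the rule used, followed strength. Of the 3950 gained regions without RelA, 75.8% (74.5 to 77.2) were listed at 8 h. From the weakest to the strongest quintile of 3 h z score the share ran 61.3% (58.4 to 64.2), 71.3% (68.4 to 74.1), 79.7% (76.9 to 82.3), 91.0% (88.6 to 93.1) and 95.8% (93.1 to 97.6). Of gained regions with RelA, 87.6% (86.2 to 88.9) were kept. In the weakest 3 quintiles the RelA-free share lay below that with RelA, which was 72.5% (67.3 to 77.3), 83.3% (79.3 to 86.9) and 86.6% (83.3 to 89.5), and the intervals did not overlap. In the upper 2 quintiles they did, with 92.2% (89.8 to 94.1) and 94.8% (92.6 to 96.4) of regions with RelA kept. The 8 h list is the longer one, and when it was cut by z score to as many hotspots as were listed at 3 h, 54.3% (52.7 to 55.9) of the RelA-free gained regions were kept.

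**Figure D3:**
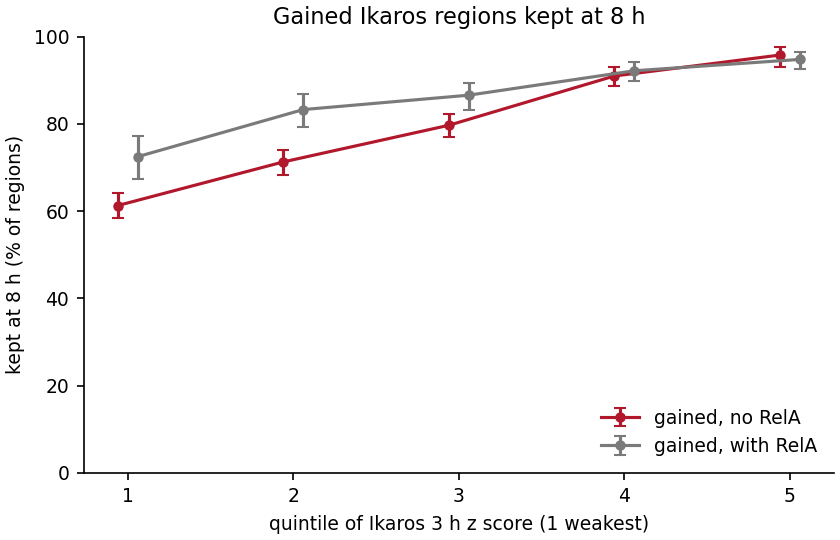
Percentage of gained Ikaros regions that were listed at 8 h, by quintile of the 3 h z score, with 95% exact intervals. Regions without RelA (red) run from 61.3% to 95.8% and lie below those with RelA (grey) in the weakest 3 quintiles.

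Within the Ikaros list of 8 h, the regions accounted for 2984 of 13796 hotspots outside input, 21.6%. They were met by 9.31% of the weakest quintile of 8 h hotspots by z score and by 32.7% of the strongest. The median z score of the 8 h hotspots they met was 17.5, against 14.4 for the whole 8 h list. Counted per 3 h hotspot, the median 8 h z score was 17.6 in the RelA-free kept regions, 20.5 in gained regions kept with RelA, 28.7 in RelA-free resting regions and 19.8 over all 3 h hotspots with a partner.

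The littermate RelA lists, which the rule did not use, give a second reading of RelA at the regions. They differ from the wild-type lists in genotype label and in library, and these cannot be told apart. Of the 2996 regions, 8 overlapped littermate RelA at 0 h, 88 at 3 h and 17 at 8 h. The shares were 0.267% (0.115 to 0.525), 2.94% (2.36 to 3.61) and 0.567% (0.331 to 0.907), where 2.05%, 17.5% and 8.20% of all 7109 Ikaros 3 h hotspots overlapped these lists. In gained regions kept with wild-type RelA the shares were 4.55% (3.70 to 5.53), 46.3% (44.2 to 48.5) and 23.2%. Of the RelA-free kept regions, 2896 overlapped no littermate RelA hotspot at any time, a share that was not computed over all Ikaros 3 h hotspots. Little overlap was common to the classes without wild-type RelA. At 3 h it was 0.734% in RelA-free regions of 3 h alone and 0.624% in RelA-free resting regions. Counting littermate hotspots with a highest density of 10 or more alone, 8, 79 and 17 of the regions overlapped one at 0, 3 and 8 h, where 2.03%, 16.8% and 8.14% of all Ikaros 3 h hotspots did.

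The 100 regions with littermate RelA at some time carried it mostly at 3 h. It was listed at 3 h alone in 75, at 3 and 8 h in 12, at 8 h alone in 5, at 0 h alone in 7, and at 0 and 3 h in 1. None carried it at all 3 times, a count that allows a share of up to 0.100%, taken as 3 counts of 2996 and not as an exact interval. The littermate 3 h hotspots at these 88 regions were dense for their list, with a median highest density of 14.0 against 4.11 for the whole littermate 3 h list. A highest density of 10 or more was reached by 89.8% of them, where 21.6% of the whole list reached it. Their centres lay a median of 64.0 bp from the Ikaros centre (quartiles 22.8 and 96.6). At gained regions kept with wild-type RelA the median littermate density was higher, 19.5. Of those regions 977 overlapped the littermate 3 h list, and 945 overlapped a hotspot of it with a density of 10 or more. Over all 7109 Ikaros 3 h hotspots these counts were 1244 and 1193, against 88 and 79 in the RelA-free kept regions. Density of this kind was thus not particular to the RelA-free kept regions.

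Against the other classes without wild-type RelA, the share at 3 h was higher in the RelA-free kept regions. It was 2.94% (2.36 to 3.61) there, 0.734% (0.296 to 1.51) in the RelA-free regions of 3 h alone and 0.624% (0.129 to 1.81) in RelA-free resting regions, and the intervals did not overlap. In the weakest quintile of Ikaros strength the kept and 3 h alone classes had 2.85% (1.73 to 4.42) and 0.476% (0.0577 to 1.71). In the next, 2.27% (1.30 to 3.65) and 0.704% (0.0854 to 2.52) overlapped in their intervals. The 3 h alone class was small in the upper quintiles, with 15 regions in the strongest, so a difference there was not detectable. At 0 and 8 h the intervals of these 3 classes overlapped.

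Among the 12 regions with littermate RelA at both 3 and 8 h, shown because none had it at all 3 times and so chosen after the values were seen, chromosome 13 at 16021579 to 16022296 was the strongest for Ikaros. Its littermate RelA density was 16.4 at 3 h and 33.5 at 8 h. Chromosome 9 at 40859429 to 40860252 had 15.3 at 3 h and 23.3 at 8 h, and chromosome 11 at 21123511 to 21124188 had 15.5 at 3 h and 26.2 at 8 h. Littermate RelA was thus denser at 8 h than at 3 h in each, in lists whose scale may differ. Ikaros was also denser at 8 h in these 3 regions, by 2.15, 1.46 and 2.02 times, as in 76.7% of all RelA-free kept regions. The chromosome 13 region was also among those ranked above on the 8 h library. On chromosome 11 the hotspot of 677 bp at 3 h met a broader one of 2170 bp at 8 h.

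**Figure D4:**
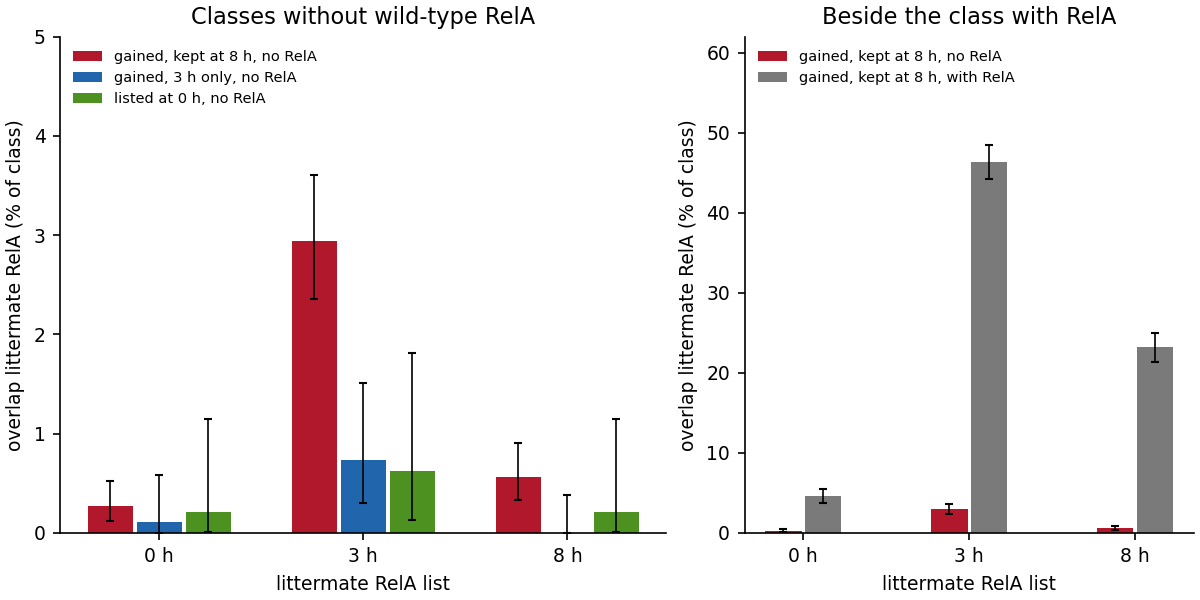
Percentage of regions of a class that overlap a littermate RelA hotspot at 0, 3 and 8 h, with 95% exact intervals. Left, RelA-free kept regions (red) reach 2.94% at 3 h, against 0.734% of RelA-free regions of 3 h alone and 0.624% of RelA-free resting regions. Right, on a wider axis, gained regions kept with wild-type RelA reach 46.3%.

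Wild-type RelA, barred from the regions by the rule, was still near many of them. A RelA hotspot of any time lay within 1 kb of 183 regions, 6.11% (5.28 to 7.03), and within 10 kb of 729, 24.3% (22.8 to 25.9), and the median gap was 45.9 kb. RelA of 3 h lay within 10 kb of 707 regions and RelA of 8 h within 10 kb of 287, from lists of 5017 and 1890 hotspots. RelA-free regions of 3 h alone had RelA within 10 kb in 25.7% (22.9 to 28.6), an interval that overlapped that of the kept regions. RelA-free resting regions had it in 17.0% (13.8 to 20.7), an interval that lay below. The broader 8 h hotspot met a wild-type RelA hotspot in 43 regions (1.44%), with a median width of 1188 bp against 638 bp for the other partners.

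The edge of the rule cuts through neighbouring signals. Chromosome 6 at 18798361 to 18798703, chromosome 8 at 11451903 to 11452370 and chromosome 11 at 58772452 to 58773139 lay 2, 3 and 6 bp from a wild-type RelA hotspot and were included. Regions on chromosome X at 18737599 to 18737882, chromosome 4 at 124793243 to 124794099 and chromosome 7 at 31207955 to 31208621 overlapped one by 1, 6 and 11 bp and were left out. On the side of retention, chromosome 2 at 122233592 to 122233870, chromosome 5 at 102484073 to 102484405 and chromosome 14 at 120876779 to 120877030 shared 4, 5 and 15 bp with an 8 h hotspot. Regions on chromosome 2 at 164881749 to 164882282, chromosome X at 45330018 to 45330269 and chromosome 5 at 104161260 to 104161515 missed one by 4, 9 and 14 bp. With no RelA hotspot allowed within 1 kb, 2813 regions remained.

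**Figure D5:**
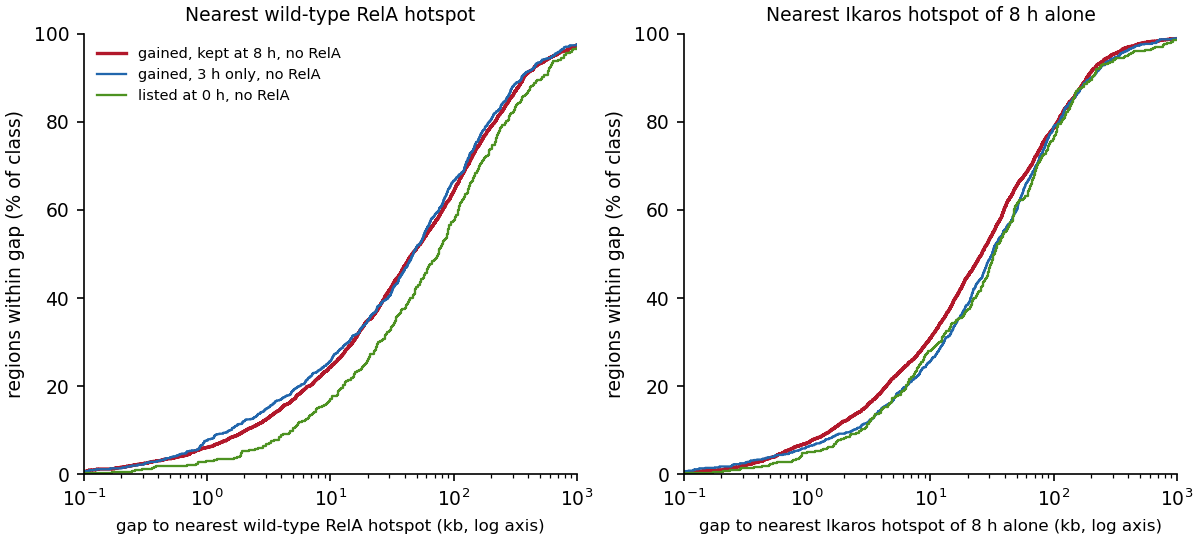
Cumulative percentage of regions by gap in kb (log axis) to the nearest wild-type RelA hotspot of any time (left) and to the nearest Ikaros hotspot listed at 8 h alone (right). For RelA the kept (red) and 3 h alone (blue) classes run together above the resting class (green), with 24.3%, 25.7% and 17.0% within 10 kb. For late Ikaros the values within 10 kb are 30.9%, 25.7% and 28.1%.

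New Ikaros hotspots of 8 h, listed at neither 0 nor 3 h, lay within 10 kb of 927 RelA-free kept regions, 30.9% (29.3 to 32.6). The share was 37.0% (34.9 to 39.1) in gained regions kept with RelA, 25.7% (22.9 to 28.6) in RelA-free regions of 3 h alone and 28.1% (24.1 to 32.3) in RelA-free resting regions. The interval of the RelA-free kept regions lay below that with RelA, above that of 3 h alone, and overlapped that of resting regions. The kept and 3 h alone classes were separated by the same 8 h list that holds the new hotspots, so their difference is a description. A gained region kept with RelA lay within 10 kb of 398 RelA-free kept regions, 13.3% (12.1 to 14.6), and of 24.8% (23.0 to 26.7) of the regions kept with RelA themselves. The share was 15.6% (13.4 to 18.1) in RelA-free regions of 3 h alone and 8.73% (6.37 to 11.6) in RelA-free resting regions. Another RelA-free kept region lay within 10 kb of 565, 18.9% (17.5 to 20.3). One lay that near to 19.1% (17.5 to 20.9) of regions kept with RelA and 17.8% (15.4 to 20.4) of RelA-free regions of 3 h alone, so these intervals overlapped. In RelA-free resting regions the share was 11.9% (9.10 to 15.1), an interval that lay below.

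Along the genome the regions were spread over 20 chromosomes at 1.13 per Mb, taking the highest end coordinate in any list as chromosome length. Chromosome 11 was the most dense, with 260 regions and 2.14 per Mb, followed by chromosome 19 with 105 and 1.71 per Mb. Chromosome X was the most sparse of these 20, with 58 regions, 1.94% of the 2996 on 6.31% of the length. The X chromosome held 2.01% of all Ikaros 3 h hotspots, so the low share is one of the whole list. RelA-free kept regions formed between 38.9% of Ikaros 3 h hotspots on chromosome 2 and 46.5% on chromosome 8, around 42.1% over all.

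The most crowded stretch of 100 kb held 6 regions, on chromosome 11 between 68850655 and 68913530. These were all of the Ikaros 3 h hotspots there, and 7 Ikaros hotspots were listed at 8 h. No Ikaros hotspot of 0 h and no RelA hotspot of either series at any time fell inside. The regions differed in course, since 4 were denser at 8 h than at 3 h and 2 less dense. The first 2 of the denser ones, starting at 68850655 and 68851164, met the same 8 h hotspot, so its value enters both ratios. The strongest at 3 h, at 68912598 to 68913530, had a highest density of 26.1 at 8 h and 57.6 at 3 h, while that at 68886798 to 68887351 had 48.5 at 8 h and 29.0 at 3 h.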

How the data were processed

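Each file lists the hotspots that the authors called in 1 ChIP-seq library. The build mm9 and the tool CASAVA come from the submitters' processing notes. The aligner, hotspot caller, threshold and any input subtraction were not given in the sources used here. The authors deposited the highest and mean tag density, a signal of unstated scale, per the file headers. They also deposited a z score, used here to rank hotspots within a list, and a p-value, which was not used. Coordinates are printed as deposited, since whether a start counts from 0 or 1 is not stated.

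Lists were intersected at 1 bp or more, and where a region met several 8 h hotspots the one sharing most bases was its partner. Quintiles are those of the z score over the 7109 Ikaros 3 h hotspots outside input. Named regions are the 10 strongest at 3 h, the next 5 at 8 h, the 5 highest and 5 lowest ratios with a single partner, those at the edges of the rule, and the most crowded 100 kb. The class of regions and these lists were chosen with earlier results of these data known. The gene table at hand is of GRCm38.p6, so no gene was assigned, and planned motif and gene counts were not run. Where more than 1 library per group would be needed, no test was made. Python 3.11.15, numpy 2.4.6, pandas 2.3.3, scipy 1.17.1 and matplotlib 3.10.9 were used. Overlap functions were tested on simulated lists and against bedtools 2.31.1. Alternatives are in the closing section.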

Additional observations from a re-analysis of the deposited data

How the results depend on the processing

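No test is attached to these values. Shares and medians outside the 95% interval of the reported value, and numbers of regions more than 1.5 times apart, are given as moved. This held for 23 of 87 alternatives across 9 results, and the other 64 stayed inside. With a reciprocal overlap of 50% with the 8 h list, 62.2% of gained RelA-free regions were kept, the median ratio was 1.23, the median width 526 bp and the share with a neighbour of the same class within 10 kb 15.3%. With no RelA within 1 kb, that share was 17.3%, and 19.4% had RelA within 10 kb. The upper 50% of 3 h hotspots by z score left 1278 regions, which the setting itself causes, with 89.5% kept, 3.83% over littermate RelA at 3 h, a median ratio of 1.17, a median width of 616 bp and 10.2% with a neighbour. With the 8 h list cut to as many hotspots as the 3 h list these were 54.3% kept, 3.64%, 1.43, 527 bp and 16.4%. Within 5 kb, 13.0% had a neighbour and 17.0% RelA, and within 50 kb 40.5% and 51.4%. The scalings of the ratio, 1.57 and 0.997, were added after the data were seen. The second gives no direction, since its set includes the regions themselves and had the same median ratio. A requirement that the 8 h partner be free of RelA was also added then, as was the use of single partners alone. For the other moved values the cause was not tested. No paired analysis was possible because every group is a single unnumbered library, and for the same reason no library was left out. Motif and promoter alternatives were not run. Depth is unknown, and so is the least enrichment each library could show.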

Other observations

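Neighbouring RelA-free kept regions changed alike only weakly between 3 and 8 h. Over 282 pairs of neighbours less than 10 kb apart with different 8 h partners, the rank correlation of the log2 ratio of highest density was 0.17. It was 0.07 over 396 pairs at 10 to 50 kb and 0.02 over 998 pairs at 200 to 1000 kb. Over all Ikaros 3 h hotspots with an 8 h partner it was 0.15, 0.15 and 0.01 at these distances. Weak likeness was thus not particular to the RelA-free kept regions. These correlations are descriptions across regions that share both libraries.

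At 8 h, 11 of the regions met a hotspot of 2000 bp or more, and 6 of these 11 broad hotspots also met a wild-type RelA hotspot. Over all 43 regions whose 8 h partner met wild-type RelA the median ratio of highest density, 8 h over 3 h, was 1.39, against 1.28 over the other 2953. The partners also differed in median width, 1188 bp against 638 bp. No interval was computed for the 43, and the part of width in the ratio was not tested. RelA of 3 h was met by 41 of the 43 partners and RelA of 8 h by 16.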
